A study of Mus musculus with 13 samples.

Results

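Plasmablast-restricted regions at gene ends are the places near protein-coding genes where the transcriptional regulator BLIMP1 was mapped in both plasmablast libraries and in no library of 5 other cell types. They were chosen by the following rule. The summits, single positions at which a peak of ChIP-seq reads was called, of all 12 ChIP libraries on chromosomes 1 to 19 were merged into regions when at most 200 bp apart. A region was kept when it held a summit of both plasmablast libraries and of none of the other 10, and when a protein-coding gene began or ended at most 1 kb (1000 bp) from its nearest summit. This selected 2856 of 152528 regions, near 2962 genes. They were 24.3% of the 11777 plasmablast-restricted regions and 38.9% of the 7339 plasmablast regions near gene ends. The other 4483 plasmablast regions near gene ends held a summit of at least 1 other library and are called shared here.

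Every library came from C57BL/6 mouse cells in which EGFP was knocked in, on both alleles, at the amino-terminal end of BLIMP1, and was made with an antibody to GFP. Plasmablasts were grown from purified B cells that received IL-4 (2 ng/mL) and LPS (10 ng/mL) for 3 days, and were sorted for GFP and CD138. Replicates 1 and 2 used 10 and 11 cells in units of 1e5. The other cell types were PGC-like cells made from knock-in embryonic stem cells, at day 2 of culture sorted for KIT (d2 PGCLC, 2 libraries) and at day 6 sorted for SSEA1 and integrin beta-3 (d6 PGCLC, 2 libraries); primordial germ cells (PGC) of E12.5 male and female gonads sorted for SSEA1 (1 library each, counted as 1 cell type); E16.5 intestinal epithelium sorted for GFP and EPCAM (2 libraries); and photoreceptor precursors of the retina at P4 sorted for GFP (2 libraries). The labels do not say whether replicates were separate cultures or animals, so the spread between them may be technical. An input sample of male E12.5 PGC was listed but not used here. The samples held no untagged cells and no input of plasmablasts. Expression was not measured, so a region near a gene says nothing of its activity, and the label plasmablast, which rests on the CD138 and GFP sort, could not be checked against expressed markers.

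BLIMP1, the product of Prdm1, is a zinc-finger protein that recruits corepressors to DNA and is needed for B cells to become antibody-secreting cells. It is known for silencing genes of the mature B cell, such as those of antigen presentation, B cell receptor signalling and proliferation, while the secretory apparatus and immunoglobulin output expand. Its zinc fingers recognise a GAAAG-containing sequence that resembles the elements bound by interferon regulatory factors. Plasmablasts are the dividing, antibody-secreting stage of this lineage.

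The sequences at some of these regions show the promoters in question. RefSeq promoter windows (GRCm38.p6, the coordinates of mm10), from 250 bases before to 50 after a start, were used where a gene had one. Each printed stretch lies before the start, outside annotated genes, around the middle of the 2 plasmablast summits, and is given 5′ to 3′ on the gene's strand. Capitals mark matches, on either strand, to AGNGAAAG (the BLIMP1 motif), GGGCGG (SP and KLF proteins), CCGGAAG (ETS proteins), CCAAT (NF-Y) and GAAANNGAA (interferon response element). The first set holds genes of the groups described below: Irf1, an interferon-induced transcription factor (chr11:53769908-53770008, plus strand), Creb3l2, a membrane-anchored factor of the secretory pathway (chr6:37442281-37442381, minus strand), Ctss, the protease cathepsin S of class II antigen presentation (chr3:95526701-95526785, plus strand), Mogs, the glucosidase that starts trimming of N-linked glycans (chr6:83115398-83115498, plus strand), Kdelr1, which returns escaped proteins to the endoplasmic reticulum (ER) (chr7:45872770-45872839, plus strand), and Polr2j, a subunit of RNA polymerase II (chr5:136116594-136116690, plus strand).
Irf1 promoter: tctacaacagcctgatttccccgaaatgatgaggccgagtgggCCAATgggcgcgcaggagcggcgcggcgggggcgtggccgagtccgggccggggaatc
Creb3l2 promoter: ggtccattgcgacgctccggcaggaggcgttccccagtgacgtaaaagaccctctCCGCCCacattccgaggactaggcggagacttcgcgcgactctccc
Ctss promoter: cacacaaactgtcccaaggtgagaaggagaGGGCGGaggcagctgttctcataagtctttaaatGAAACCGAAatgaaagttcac
Mogs promoter: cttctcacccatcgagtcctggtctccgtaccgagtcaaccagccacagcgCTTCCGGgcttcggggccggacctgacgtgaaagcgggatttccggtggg
Kdelr1 promoter: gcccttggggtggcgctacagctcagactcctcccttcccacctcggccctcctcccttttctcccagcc
Polr2j promoter: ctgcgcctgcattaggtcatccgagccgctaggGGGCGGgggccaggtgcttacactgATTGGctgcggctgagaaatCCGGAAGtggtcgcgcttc

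The second set was picked from the promoters with both summits closest to each other and to the start: the histone genes H4c11 (chr13:21734968-21735033, plus strand) and H3c13 (chr3:96268580-96268653, plus strand), the peroxisomal ATPase gene Pex6 (chr17:46711399-46711475, plus strand) and the aminoacylase gene Acy1 (chr9:106438237-106438325, minus strand). Their 2 summits lay 20, 18, 4 and 2 bp apart. By the sum of both distances D10Wsu102e, Sdad1 and Tuba1a ranked before them and are not printed. Mob2, which ranked before Acy1 and H3c13, is not printed either. The Sdad1 stretch holds none of the marked letters. The third set holds a BLIMP1 motif, which few of the restricted regions scanned for it did (below): Mybbp1a, a nucleolar MYB-binding protein (chr11:72441197-72441297, plus strand), Lars2, the mitochondrial leucyl-tRNA synthetase (chr9:123366853-123366926, plus strand), and Ncf1, an organiser of the phagocyte NADPH oxidase (chr5:134229681-134229781, minus strand).
H4c11 promoter: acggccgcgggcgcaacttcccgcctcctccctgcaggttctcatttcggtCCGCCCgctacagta
H3c13 promoter: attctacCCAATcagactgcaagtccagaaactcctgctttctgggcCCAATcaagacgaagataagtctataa
Pex6 promoter: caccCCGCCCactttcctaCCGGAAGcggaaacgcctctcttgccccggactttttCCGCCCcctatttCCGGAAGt
Acy1 promoter: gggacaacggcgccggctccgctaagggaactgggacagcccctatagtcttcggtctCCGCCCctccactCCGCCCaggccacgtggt
Mybbp1a promoter: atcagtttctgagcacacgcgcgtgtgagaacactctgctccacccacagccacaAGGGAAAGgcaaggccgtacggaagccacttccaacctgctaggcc
Lars2 promoter: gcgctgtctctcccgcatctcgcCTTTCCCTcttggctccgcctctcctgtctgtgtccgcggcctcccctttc
Ncf1 promoter: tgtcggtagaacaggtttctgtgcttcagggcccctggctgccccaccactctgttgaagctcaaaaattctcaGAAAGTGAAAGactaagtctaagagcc

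In the printed stretches outside the third set the marked letters are mostly GC-rich promoter elements. The SP and KLF letters stand in the Creb3l2, Ctss, Polr2j, H4c11, Pex6 and Acy1 stretches, and the ETS letters in those of Mogs, Polr2j and Pex6. The H3c13 promoter holds CCAAT boxes, and the Ctss promoter holds an interferon element near its start. The Kdelr1 stretch holds none of these letters.

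The libraries differed in length, from 7866 summits in intestinal epithelium replicate 1 to 75237 in d6 PGCLC replicate 1. The plasmablast replicates listed 39944 and 44141 summits. The files give positions without height, score or read depth, so a missing summit may mean a shallower library or another threshold, and no value here is corrected for that. Library d6 PGCLC replicate 1 stood apart from its replicate, which listed 15248. Without it the rule selected 3573 regions near 3656 genes. The background share of genes, the lists that moved most and the BLIMP1 motif are given below without it as well, and its neighbouring summits are given separately.

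The 2 plasmablast libraries placed their summits close together. The median distance between the replicates' summits in a selected region was 65 bp (25th and 75th percentiles 29 and 115), and 1150 regions (40.3%) had them within 50 bp. Shared regions had a median of 62 bp. In 2828 of the selected regions each library had exactly 1 summit. Most regions lay near 1 gene (2429), 420 near 2 and 7 near 3. Of the genes, 2650 had 1 region, 296 had 2 and 16 had 3.

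The regions were concentrated at the starts of genes. The promoter table gives the strand of 79.6% of the genes, which set the end type of 2231 regions. Of these, 1909 (85.6%, Clopper-Pearson 95% interval 84.0% to 87.0%) lay within 1 kb of a start and of no far end, 204 (9.14%, 7.98% to 10.4%) of a far end alone and 118 (5.29%) of both. Among shared plasmablast regions 91.5% (90.6% to 92.4%) were at starts alone and 4.17% (3.53% to 4.88%) at far ends alone. These intervals cover counting error only, and neighbouring regions are not independent. The selected regions thus had a larger share at far ends than the shared ones, with intervals that do not overlap and no test of the difference. In the regions restricted to each other cell type, chosen by the same rule, the start share ran from 62.5% (8 E12.5 PGC regions of known strand) to 77.8% (153 in photoreceptor precursors).

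Summits peaked just at the start. Relative to the nearest start, the median position was 66 bp downstream in replicate 1 and 74 bp in replicate 2 (2077 regions; 25th percentiles -100 and -102, 75th 409 and 411). In replicate 1 45.8% lay within 200 bp and in replicate 2 45.5%. Shared regions had medians of 28.5 and 21 bp, and 51.5% and 53.3% within 200 bp. Both replicates thus put the selected regions slightly farther into the gene than the shared ones, as the plot of summit positions around gene starts shows. Starts of genes on opposite strands within reach of 1 region were found for 214 of 2027 regions (10.6%, 9.25% to 12.0%), against 455 of 3378 shared regions (13.5%, 12.3% to 14.7%).

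**Figure D1:**
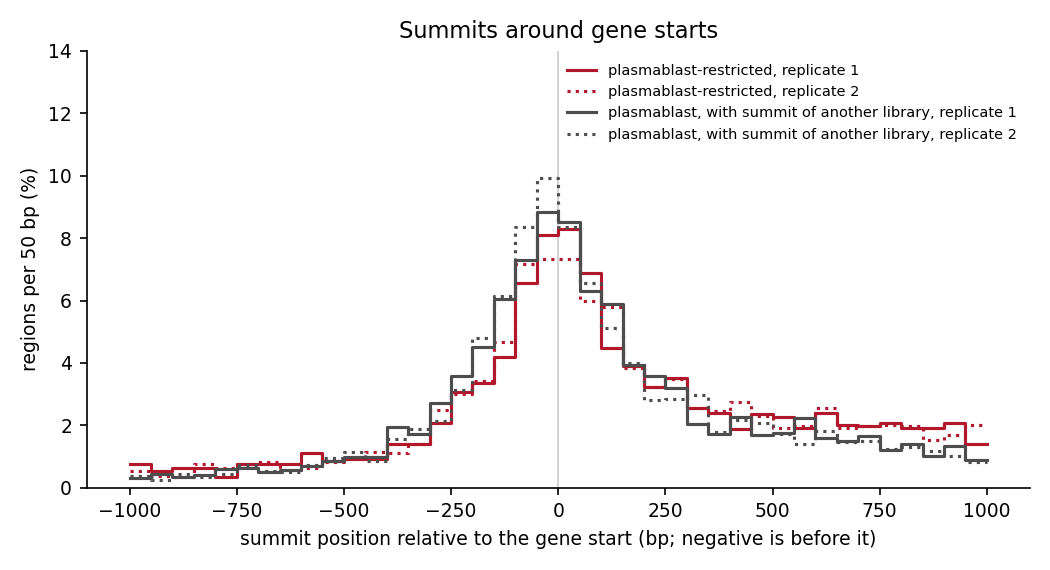
Position of the plasmablast summit relative to the nearest gene start (x, bp, negative values lie before the start) against the percent of regions per 50 bp (y), for each replicate (solid, replicate 1; dotted, replicate 2) of the plasmablast-restricted and the shared regions. All 4 lines peak at the start, and both restricted lines lie above both shared lines from 600 bp downstream on.

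The 1 kb limit cut through a continuous range of distances. The median distance of the nearest summit to a gene end was 220 bp (25th and 75th percentiles 59 and 536), with 995 regions (34.8%) within 100 bp and 124 (4.34%) between 900 and 1000 bp. Just inside were regions of Macrod1 (995 bp), H2-Ob and Hexim1 (996 bp), and Hlf and Ppm1d (1000 bp). Just outside were those of Smpdl3a (1001 bp), Grb2 (1003 bp), and Cdkn1a, Dusp2 and a second region of H2-Q7 (1004 bp). Of the excluded genes, Cdkn1a encodes a cell cycle inhibitor, Grb2 a signalling adaptor and Dusp2 a MAP kinase phosphatase.

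Plasmablast-restricted regions lay near gene ends more often than those of the other cell types. Among each library's regions with no summit of another cell type, 5882 of 24524 lay near a gene end in plasmablast replicate 1 and 6752 of 29237 (23.1%) in replicate 2. The corresponding shares were 8.27% and 9.87% in d2 PGCLC, 8.75% and 12.1% in d6 PGCLC, 5.89% and 6.2% in male and female E12.5 PGC, 11.8% and 14.3% in intestinal epithelium, and 8.35% and 8.11% in photoreceptor precursors. Both plasmablast libraries were above all 10 others. The plasmablast mean of 23.5% ± 0.63 (SD, n = 2 libraries) exceeded the mean of the other cell types, 9.37% ± 2.61 (SD, n = 5), by 14.2 percentage points. Closeness to a gene end is part of the rule, so this is a description of the selection. It has no test that could inform: an exact permutation over 6 cell types, two-sided, cannot go below p = 0.167, the value it gave. Regions found in 1 library alone also put both plasmablast replicates highest (23.7% and 22.3%, and at most 15.7% in the others), while the order of the other cell types changed. Over all regions bound in both libraries of a cell type, restricted or not, the gap was smaller: 32.3% lay near a gene end in plasmablasts, 27.3% in intestinal epithelium, 1853 of 7732 regions in photoreceptor precursors and 14.2% to 15.6% in the germ line types.

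**Figure D2:**
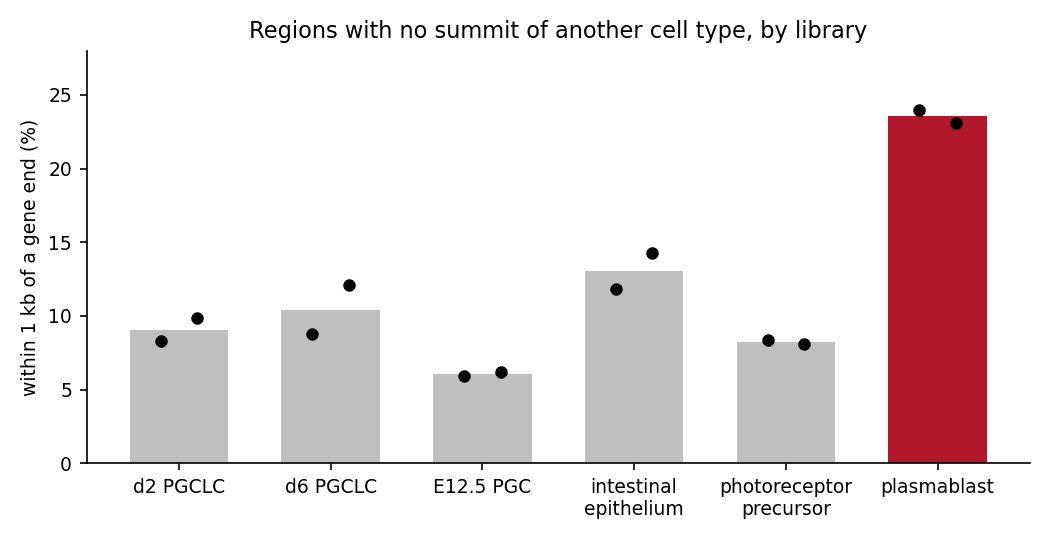
Percent of regions within 1 kb of a protein-coding gene end (y) for each cell type (x), over the regions of a library that hold no summit of another cell type. Points are libraries and bars the mean of 2; both plasmablast points, with a mean of 23.5%, lie above the highest other point (14.3%).

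The gene groups below were read against all protein-coding genes. Of 20665 such genes 2962 (14.3%) had a selected region, 7266 (35.2%) any plasmablast region within 1 kb of an end, and 1532 (7.41%) a selected region with no summit of another cell type within 1 kb of either end. Among the 7266 genes with any plasmablast region, 40.8% had a selected one. A list can exceed 14.3% either because plasmablast regions are frequent in it or because those regions lack summits of other libraries. The 40.8% is given for the second reason but does not separate these fully. A gene with both a selected and a shared region counts as selected, as 567 of the 2962 member genes did. Counts of 49 lists are shown in the plot of gene lists; no test was run on them. Without d6 PGCLC replicate 1 the background itself was 17.7% (3656 genes), 42 of the 49 lists held more members and 7 the same number. The count moved by over 1.5 times in 5 lists: JAK, STAT and SOCS genes from 3 to 5, apoptosis genes from 6 to 10 of 33, kinesins from 5 to 8 of 37, keratins from 1 to 2 and olfactory receptors from 0 to 1.

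Genes of plasma cell regulation and immunoglobulin processing, replication-dependent histones and MHC class II genes had the highest shares, 50.0%, 49.1% and 46.7%. Their rank among the lists depended on the libraries and the rule. Without d6 PGCLC replicate 1 the shares were 50.0%, 57.9% and 53.3%. With no summit of another library allowed within 1 kb they were 27.8%, 31.6% and 40.0%, where the background was 9.18%. RNA polymerase subunits (32.1%) then ranked above the histones and the plasma cell genes. B cell receptor signalling (31.0%) ranked above the plasma cell genes too. Of 18 plasma cell genes 9 (50.0%) had a selected region, against 14.3% of all genes, and these were 69.2% of the 13 with any plasmablast region. Irf4, a transcription factor that drives plasma cell formation (chromosome 13, 30749233 to 30766981, plus strand), had 3 regions. At its start the replicates' summits lay at 33 and 2 bp, and near its far end at 235 and 194 bp and at 788 and 824 bp. Around Irf4 the nearest summit of another cell type, in the male E12.5 PGC library, was 10588 bp away. Derl3, a component of ER-associated degradation, had summits at 97 and 92 bp from the start. Creb3l2 had 2 regions at its start, at 76 and 34 bp and at 716 and 650 bp. Mzb1, a chaperone of immunoglobulin assembly, had summits at 73 and 12 bp from one end. Others were Pou2af1, a B cell coactivator, Tnfrsf13b, the receptor TACI, Ell2, an elongation factor of immunoglobulin secretion, and Fkbp11, a secretory peptidyl-prolyl isomerase. The count fell to 5 when regions with any other library's summit within 1 kb were dropped, and stayed 9 without d6 PGCLC replicate 1.

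Prdm1 itself (chromosome 10, 44437174 to 44528558, minus strand) was a member through a region beyond its far end. The replicates' summits lay at 709 and 704 bp, 5 bp apart. Other libraries had summits within 1 kb of Prdm1 too, for example the male E12.5 PGC library at 20 bp and photoreceptor precursor replicate 2 at 207 bp, but not in that region. Some hallmark genes were not members. Sdc1, which encodes the CD138 used in the sort, and Bach2, a repressor of plasma cell fate, had plasmablast regions that held a summit of another library. Xbp1, the factor of secretory expansion, and Jchain, the joining chain of IgM and IgA, had summits of both plasmablast libraries within 1 kb (104 and 222 bp, 68 and 291 bp) but in different regions.

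B cell receptor signalling had 12 of 29 genes (41.4%), 8 of them with no other cell type's summit within 1 kb of their ends (background 7.41%). The 12 were 66.7% of the 18 genes with any plasmablast region. Cd79b, a signalling chain of the receptor, had summits at 5 and 84 bp from an end in the 2 replicates. Pik3ap1, the adaptor BCAP that links the receptor to PI3 kinase, had 2 regions, at 6 and 110 bp and at 987 and 974 bp. Prkcb, a kinase that carries the signal to NF-kB, had summits at 74 and 69 bp. Members were also, among others, Lyn and Blk (kinases), Plcg2 and Pik3cd (lipid signalling enzymes), Bank1 and Grap2 (adaptors), Cr2 (the complement coreceptor) and Inpp5d (the phosphatase SHIP1). In each of the 5 other cell types 1 or 2 of the 29 genes had a region with both libraries. These cell types had fewer regions near gene ends in all, 1118 to 1853 against 7339 in plasmablasts. Their share over all genes was not computed, so low counts in them are not read as a trait of this list. Ptprc, which encodes the phosphatase CD45 and was examined singly, had summits at 40 and 126 bp from its start. No summit of any other library lay nearer than 26932 bp to either end of Ptprc, and summits inside this long gene were not looked up.

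B cell transcription factors gave 8 of 25 (32.0%), or 44.4% of the 18 with any plasmablast region. Spib, an ETS factor of B cells, had both summits within 3 bp of each other at 574 and 577 bp from its start. Ets1 had them at 77 and 108 bp of an end, Mef2b at 66 and 24 bp, and Pou2af1 at 541 and 550 bp. Bcl6, the germinal centre repressor, had a selected region at 1067 and 971 bp inside its start and a shared plasmablast region as well. Id3, an inhibitor of E proteins, had one at 232 and 100 bp from its far end, beside summits of 5 other libraries within 1 kb of the gene. Foxo1 and Ikzf3 were the remaining members.

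Cytokine and TNF family receptors were also frequent members. Of 28 cytokine and TNF family receptors 9 (32.1%) were members, 69.2% of the 13 with any plasmablast region, and in each other cell type at most 1 was bound. That last count is subject to the same limit of fewer regions in those cell types. Tnfrsf13c, the BAFF receptor that B cells need to survive, had summits at 141 and 127 bp before its start. Il21r, the receptor of a T cell help cytokine, had them at 127 and 146 bp inside its start, and Ifngr2, an interferon gamma receptor chain, at 191 and 198 bp. Tnfrsf13b, the costimulatory receptor Cd40, Il9r, Il10ra, Il10rb and Ifnar2 were the others, and the 9 genes had 8 regions between them. Of 53 chemokines and chemokine receptors 6 were members (11.3%), below the 14.3% of all genes, yet these were 66.7% of the 9 with any plasmablast region. They included Ccr10, a homing receptor of IgA plasma cells, Cxcr5, which leads B cells into follicles (49 and 151 bp from an end), and Ccr7, the lymph node homing receptor. Ccl24, Ccl25 and Ccr1l1 were the remaining members. In NF-kB and Toll-like receptor signalling 9 of 37 were members, 40.9% of the 22 with any plasmablast region, which is the background share. Tlr4, the LPS receptor, had summits at 130 and 106 bp from an end, Cd180, a TLR4 homologue of B cells, at 497 and 523 bp from its start, and Tlr9, the adaptor Myd88, the kinase Ikbkb and the NF-kB subunit Rela were members too.

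Antigen presentation divided by class. Of 15 MHC class II genes 7 (46.7%) were members, 87.5% of the 8 with any plasmablast region, and 6 had no other cell type's summit near their ends. In the other cell types, which had fewer regions near gene ends in all (above), 0 to 2 of the 15 were bound. H2-DMb2, part of the peptide exchanger, had 2 regions at its start (100 and 59 bp, 837 and 790 bp), and H2-Ob, part of its inhibitor, had 2 (88 and 262 bp, 1128 and 996 bp). Cd74, the invariant chain, had summits of both replicates at the same position, 323 bp from an end, and Ctss, which digests that chain, at 16 and 54 bp from its start. H2-DMa, H2-Oa and H2-Eb1 were the others. Ciita, the master regulator of class II genes, had no plasmablast summit within 1 kb (nearest 3963 and 3958 bp). All 20 class I and antigen processing genes had a plasmablast region, but 6 (30.0%) had a selected one, below the 40.8% background, and 10 to 14 were bound in each other cell type. With no summit of another library allowed within 1 kb, 2 of the 20 remained (10.0%, background 9.18%). B2m, which encodes the light chain of MHC class I, had 2 regions with summits at 19 and 85 bp and at 1053 and 984 bp from its start. Tap1, H2-Q7, Nlrc5, H2-T24 and H2-K1 were the others. Reads may be assigned to the wrong H2 gene, since these genes are much alike, so single H2 entries are uncertain.

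Interferon response genes were above the 14.3% of all genes, with 11 of 48 (22.9%), and below the 40.8%, with 36.7% of the 30 that had any plasmablast region. With no summit of another library allowed within 1 kb, 5 of 48 remained (10.4%), near the background of 9.18%. Irf1 (chromosome 11, 53770014 to 53778374, plus strand) had 2 regions, at 75 and 38 bp before its start and at 641 and 676 bp inside it. The promoter sequence of Irf1 given above surrounds the first pair. Dtx3l and Parp9, partner proteins of a ubiquitin and ADP-ribose pathway, share a divergent promoter and the same 2 regions. Isg20, an exonuclease, had 2, and the antiviral effectors Gbp7, Oasl1, Ifit2, Ifit3, Adar and Rsad2 and the ISG15 protease gene Usp18 were the others. Of 21 JAK, STAT and SOCS genes 3 were members (14.3%, the background), Cish, Tyk2 and Socs5, and these were 21.4% of the 14 with any plasmablast region.

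**Figure D3:**
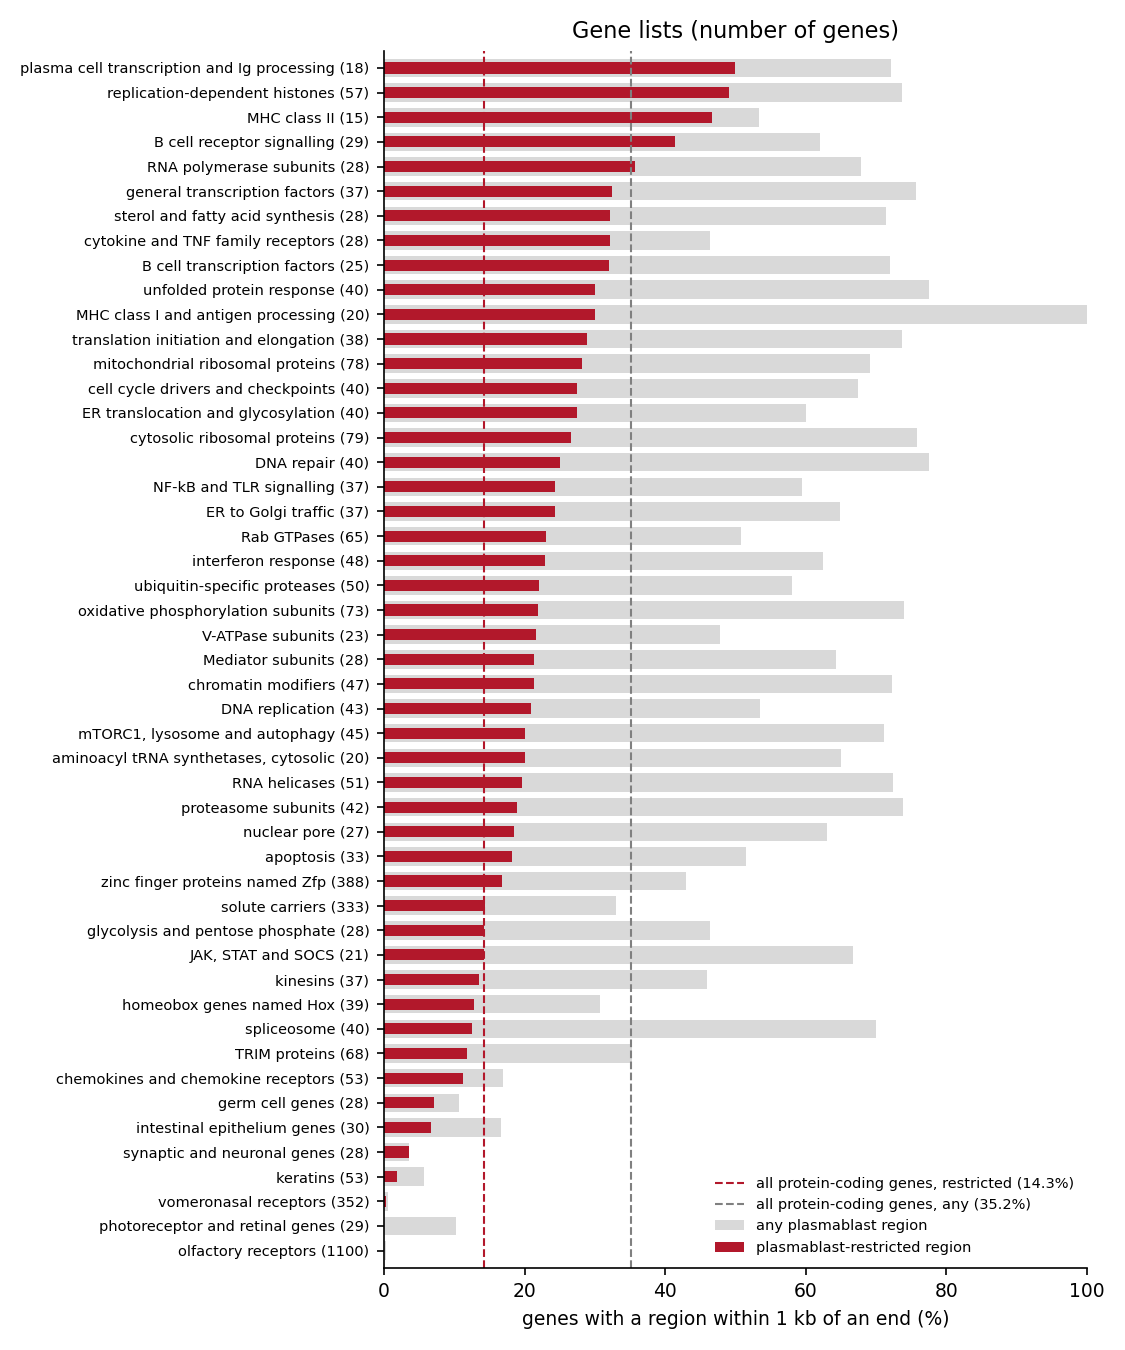
Percent of the genes of each list (y, number of genes in parentheses) with a plasmablast-restricted region (red bars) or any plasmablast region (grey bars) within 1 kb of an end (x). Dashed lines are the shares over all protein-coding genes, 14.3% and 35.2%; red bars run from 50.0% for plasma cell genes to 0 for olfactory receptors.

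Genes of the secretory pathway had many plasmablast regions, of which an average part was restricted. Of 40 unfolded protein response genes 31 had a plasmablast region and 12 a selected one (30.0% of the list, 38.7% of the 31). Selenos, an ER-associated degradation factor, had 2 regions at its start (94 and 31 bp, 559 and 638 bp). Sdf2l1, an ER chaperone cofactor, had summits at 577 and 567 bp before its start and Edem3, which trims mannose from misfolded glycoproteins, at 595 and 584 bp. Ern1, the stress sensor IRE1, Atf6b, Sel1l, Herpud1, Ero1a, Ufd1, Pdia4 and Pdia6 were members too. Of 40 ER translocation and glycosylation genes 11 (27.5%) were members. Mogs had 2 regions (60 and 56 bp, 362 and 394 bp) and Alg3, a mannosyltransferase, 2 (27 and 216 bp, 649 and 767 bp). Rpn2, an oligosaccharyltransferase subunit, had summits at 4 and 27 bp. Of 37 ER to Golgi traffic genes 9 were members, among them Sec16a, the organiser of ER exit sites, with a region at each end, Kdelr1 (5 and 36 bp), Sec24a, a cargo receptor of COPII coats, and Copz1, a COPI subunit. Of these 9, 7 had no other cell type's summit near an end (18.9% of the list, background 7.41%). In the unfolded protein response 6 of 40 did (15.0%), and in ER translocation and glycosylation 3 of 40 (7.5%, near the background). With no summit of another library allowed within 1 kb, ER translocation and glycosylation kept 4 members (10.0%, background 9.18%).

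The RNA polymerase list was above both background shares (14.3% and 40.8%), and the cytosolic ribosome above the first alone. Of 28 RNA polymerase subunits 10 (35.7%) were members, 52.6% of the 19 with any plasmablast region, and 8 had no other cell type's summit near an end. Polr2m had summits at 3 and 28 bp, Polr1b at 30 and 40 bp and Polr2j at 58 and 35 bp from the start. Of 37 general transcription factors 12 (32.4%) were members, among them Tbp, the TATA-binding protein, Gtf2a2, a subunit of TFIIA, and TBP-associated factors such as Taf11 (393 and 365 bp from its start) and Taf6 (167 and 151 bp). Of 79 cytosolic ribosomal proteins 60 had a plasmablast region and 21 (26.6%) a selected one, which is 35.0% of the 60 and below the background. Rpsa had summits at 0 and 11 bp and Rpl10a at 38 and 48 bp. Of 78 mitochondrial ribosomal proteins 22 (28.2%) were members, including Mrpl58 with 3 regions. Translation factors gave 11 of 38, proteasome subunits 8 of 42, and the spliceosome 5 of 40, 17.9% of its 28 genes with any plasmablast region. Copies of ribosomal protein genes elsewhere in the genome make read placement uncertain here too.

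Replication-dependent histone genes, which supply the histones of newly made chromatin, were often members. Of 57 such genes 28 (49.1%) were members, 66.7% of the 42 with any plasmablast region, and 17 had no other cell type's summit near an end. These genes are short and clustered, so 26 regions served the 28 genes and both ends of a gene fall in 1 window. H2ac4 had summits at 68 and 38 bp from its start and at 13 and 27 bp from its far end. H3c13 had them at 15 and 33 bp before its start and H4c3 at 33 and 29 bp. Histone genes are near-identical, and which copy a summit belongs to is uncertain. Without d6 PGCLC replicate 1 the count was 33, and with no other summit allowed within 1 kb it was 18.

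Genes that drive the cell cycle gave 11 of 40 (27.5%, against 14.3% of all genes). These were 40.7% of the 27 with any plasmablast region, which is the background share (40.8%). Aurka, the mitotic kinase, had both replicates' summits at 51 bp before its start, Ttk, the spindle checkpoint kinase, at 226 and 218 bp, and Cdc20, an activator of the anaphase-promoting complex, at 627 and 607 bp. E2f2, the cyclins Ccne1 and Ccnd3, and Cdc25a and Wee1, which activate and inhibit cyclin-dependent kinases, were members too. DNA replication gave 9 of 43, with Pold1, the catalytic subunit of polymerase delta, holding 2 regions at its start (173 and 15 bp, 779 and 785 bp), and DNA repair 10 of 40, with Ercc2 at 181 and 183 bp. Sterol and fatty acid synthesis had 9 of 28 (32.1%), among them Scap, the sterol sensor (0 and 48 bp), and Srebf2, a transcription factor of sterol synthesis. Glycolysis had 4 of 28 (14.3%, the background), including Slc2a1, the glucose transporter, at 45 and 141 bp. Oxidative phosphorylation subunits gave 16 of 73, 29.6% of the 54 with any plasmablast region.

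Genes of the other tissues were seldom members. None of 29 photoreceptor and retinal genes, 2 of 28 germ cell genes (Dazl and Stra8), 2 of 30 intestinal genes (Cdh17 and Epcam) and 1 of 28 synaptic genes (Vamp2) had a selected region, all below 14.3%. Few of these genes had any plasmablast region (3, 3, 5 and 1 in the same order, against 35.2% of all genes), and of those few the restricted ones were 0 of 3, 2 of 3, 2 of 5 and 1 of 1. Dazl, an RNA-binding protein of germ cells, had summits at 525 and 506 bp inside its start. Of 1100 olfactory receptors 0, of 352 vomeronasal receptors 1 and of 53 keratins 1 were members. Zinc finger genes named Zfp (65 of 388, 16.8%) and solute carriers (48 of 333, 14.4%) were near the background. By the number of regions, the leading genes had 3 each. Slc30a1, a zinc exporter, had summits at 43 and 22, 399 and 466, and 969 and 968 bp, all at its start. Ssu72, a phosphatase of RNA polymerase II, had 2 at its start and 1 beyond its far end. Lin54, the DNA-binding subunit of the DREAM cell cycle complex, and Gtf3c6, a subunit of TFIIIC, had the same arrangement.

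Many selected regions had summits of other cell types nearby, outside the merged region. In 1002 of 2856 (35.1%, 33.3% to 36.9%) another library had a summit within 1 kb, and in 1632 (57.1%) within 5 kb. Of plasmablast-restricted regions farther from gene ends 16.3% and 47.3% did. By cell type, d6 PGCLC had a summit within 1 kb of 24.4% of the selected regions, intestinal epithelium of 11.5%, photoreceptor precursors of 8.23%, d2 PGCLC of 6.79% and E12.5 PGC of 4.76%. The d6 PGCLC value comes nearly whole from replicate 1 (23.8%), and replicate 2 gave 3.29%. At the level of genes 48.3% of the member genes had another cell type's summit within 1 kb of an end. In the single libraries the member genes with such a summit ran from 4.63% (male E12.5 PGC) to 15.4% (intestinal epithelium replicate 2), and to 35.3% in d6 PGCLC replicate 1. Genes with plasmablast regions of the shared kind alone had 26.8% to 80.9%, in part by construction of the rule, and genes without a plasmablast region 3.05% to 24.1%. Each of the 10 libraries thus placed summits at a larger share of the member genes than of genes without a plasmablast region.

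**Figure D4:**
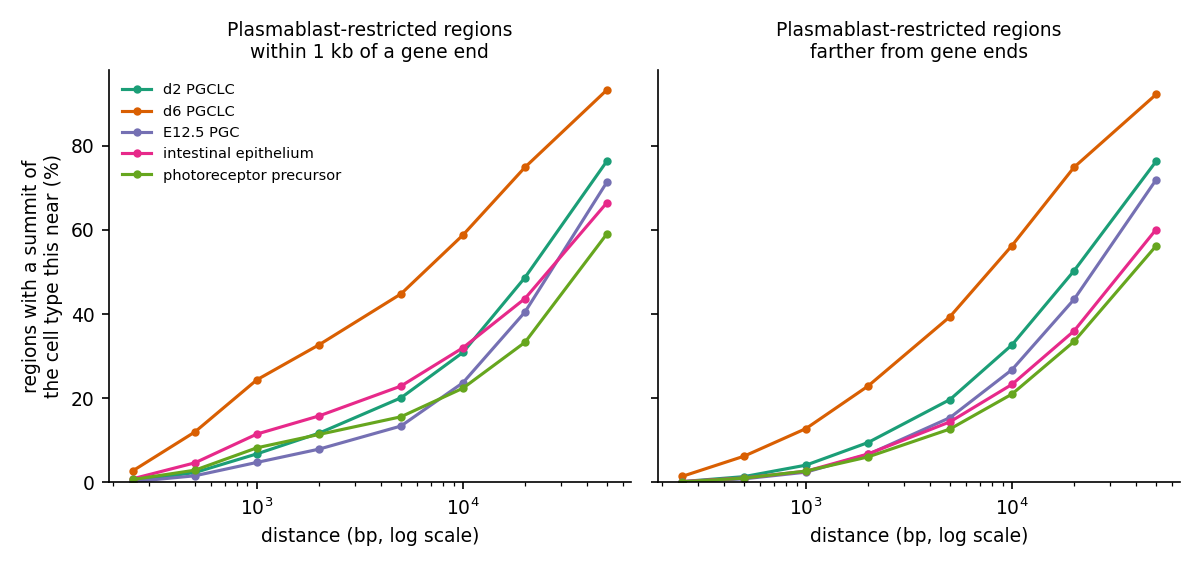
Percent of plasmablast-restricted regions (y) with a summit of another cell type within a given distance (x, bp, log scale), for regions near gene ends (left) and farther away (right); lines are cell types. Within 1 kb the d6 PGCLC line reaches 24.4% at gene ends, and intestinal epithelium 11.5% against 2.66% farther away.

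The promoters holding a selected region were rich in CpG. A RefSeq promoter window held both summits of 653 selected regions. Of the 730 windows concerned, 82.1% had a ratio of observed to expected CpG of at least 0.6, against 89.1% of 1463 windows with a shared plasmablast region, 48.9% of all 20085 windows and 28.9% of those with no summit of any library. The median GC content was 61.3%, 62.0%, 57.0% and 52.3% in the same order. Of the 32 promoters with a photoreceptor precursor-restricted region, 40.6% had a CpG ratio of at least 0.6, and the median GC content was 55.2%. The member genes had a median length of 20740 bp, against 21830 bp for genes with other plasmablast regions and 15290 bp for the rest.

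In the selected regions that could be scanned, the BLIMP1 motif stood about as often as in promoters at large, and more often in scanned shared regions. Scanned were only regions whose window of 50 bp to each side fit wholly in a promoter window, 558 of the 2856 selected ones. Their middle lay before a start. Regions centred only after a start or at a far end were not scanned. In windows of 50 bp to each side of the middle of the 2 summits AGNGAAAG stood on either strand in 15 of 558 restricted regions (2.69%, 1.51% to 4.4%). In tiles of the same length over all promoters its share was 2.72%. In shared plasmablast regions it was 105 of 1112 (9.44%, 7.79% to 11.3%), an interval that does not overlap the first; the difference was not tested further. The share was higher the more other libraries had a summit in the region: 2.84% with 1 (352 regions), 4.96% with 2 to 3 (363), 23 of 209 with 4 to 6 (7.11% to 16.1%) and 28.7% with 7 to 10 (54 of 188, 22.4% to 35.8%). Within CpG-rich promoters the shares were 2.19% restricted, 8.38% shared and 2.2% in all tiles, and within the other promoters 5 of 102 restricted, 22 of 122 shared and 3.21% of tiles. Over all promoters, without d6 PGCLC replicate 1, the restricted and shared shares were 2.77% and 10.6%. The shorter letters GAAAG, which AGNGAAAG contains, stood in 25.3% of restricted, 38.7% of shared and 23.6% of all windows.

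The intervals of the other motifs overlapped between restricted and shared regions. CCGGAAG (ETS) stood in 12.0% of restricted and 14.6% of shared windows, against 4.17% of all tiles. GGGCGG (SP and KLF) stood in 36.7% and 38.2% against 23.1%, and CCAAT (NF-Y) in 22.6% and 18.5% against 15.7%. GAAANNGAA, which can overlap GAAAG, stood in 3.41% and 5.13% against 2.69%, and TATAAA in 1.25% and 1.89% against 4.49%. A match is a description of the letters and not a bound site, and a window without one says nothing of the factor. The 15 scanned selected regions with AGNGAAAG included, besides the Mybbp1a, Lars2 and Ncf1 promoters printed above, Ikbke, a kinase of interferon induction, Il12a, a subunit of IL-12 and IL-35, Pck2, the mitochondrial PEP carboxykinase, and Smarcad1, a chromatin remodeller.

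**Figure D5:**
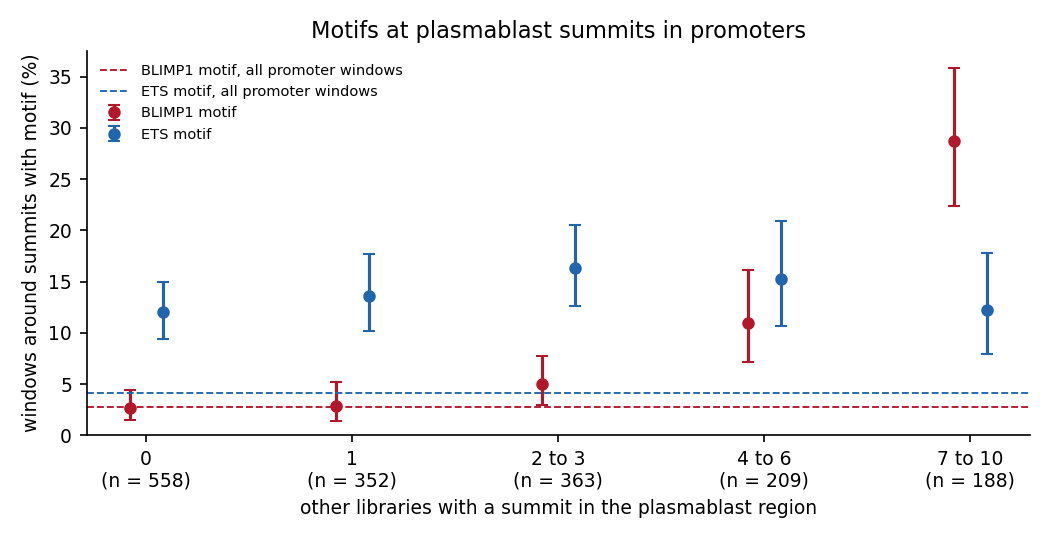
Percent of windows, 50 bp to each side of plasmablast summits, in promoters, that hold the BLIMP1 motif (red) or the ETS motif (blue) on the y axis, by the number of the 10 other libraries with a summit in the region on the x axis; bars are Clopper-Pearson 95% intervals and dashed lines the share in tiles of all promoters. The red points go from 2.69% with 0 other libraries to 28.7% with 7 to 10, while the blue points stay between 12.0% and 16.3%.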

How the data were processed

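BLIMP1 ChIP-seq was deposited as 1 list of summits per library, each line a chromosome and a position, and the values used are these positions, another unit than a count or score. MACS2 2.1, Bowtie 1.1.2, cutadapt 1.7.1 and Trim Galore 0.3.7, with build mm10, are what the submitters' processing notes name. The settings, the control of the peak calls and the first coordinate (0 or 1) are not given in the sources used here; distances may be off by 1 bp.

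Summits of the 12 libraries were merged by single linkage and matched to RefSeq genes of GRCm38.p6. Strand, starts and sequence came from a promoter table that covers 16457 of the genes; the strand of the others was not used. Genes of the lists on X, Y or the mitochondrial genome (26) stayed out. The members, the gene lists and the motifs were chosen with earlier results of these data known. Named genes were those with the most regions, then the closest replicate summits, up to 4 per list, plus 24 genes chosen singly; further members are named without values. Intervals of shares are Clopper-Pearson 95% intervals and hold no error beyond counting. The merging was tested on simulated summits. Python 3.11.15, numpy 2.4.6, pandas 2.3.3, scipy 1.17.1 and matplotlib 3.10.9 were used. Alternatives were other merging distances, windows and gene sets, a stricter rule on neighbours, and each library left out. The files do not say whether positions count from 0 or 1, so positions may be off by 1 bp. A few genes of the lists are counted but not reported by name here.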

Additional observations from a re-analysis of the deposited data

Results flagged for a closer look

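Chromosome X, which the rule leaves out, held 81 regions that met the same conditions and lie outside the comparisons reported here. Chromosome Y held 0. With X and Y included there were 2937 regions near 3046 genes, and 24.4% of the plasmablast-restricted regions lay near a gene end. Which genes on X they belong to was not examined.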

How the results depend on the processing

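The share of plasmablast-restricted regions near gene ends was 24.3% as reported, 22.6% with summits merged at most 500 bp apart, 17.6% and 31.5% with windows of 500 bp and 2 kb, 29.7% with genes of every kind and 19.9% with no summit of another library allowed within 1 kb; a wider window or more genes raise it by construction. The stricter rule left 1854 regions near 1898 genes. With single libraries left out, regions numbered 2863 to 6896, genes 2970 to 5916, and the share ran from 23.3% to 26.1%. The upper counts come from leaving out plasmablast replicate 1 (6896 regions) or 2 (6039), since the remaining library alone then selects. The BLIMP1 motif stood in 7.25% to 10.6% of shared and 2.19% to 2.93% of restricted windows with libraries left out. Windows of 30 bp to each side, added after seeing the data, gave 1.29% restricted and 6.86% shared, since shorter windows hold fewer matches.

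The plasmablast excess in share over the other cell types stayed between 10.0 and 17.7 percentage points under the alternatives tried. The p-values are not read here, since the design fixes them. With a replicate block, differences taken within replicate number and E12.5 PGC left out, it was 13.3. Of 931 list counts over 19 alternatives, 787 stayed within 1.5 times of those reported and 144 moved further, 77 of them on leaving out a plasmablast library. List length, depth and calling threshold could not be set equal between libraries.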
